A study of Homo sapiens with 6 samples.

Results

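The S100 calcium-binding proteins are described here through 10 genes of the family in SW-1990 cells, an established human pancreatic adenocarcinoma line taken from a spleen metastasis. They are S100A2, S100A4, S100A6, S100A9, S100A10, S100A11, S100A13, S100A14, S100A16 and S100P, and every probe set annotated with one of these symbols and no other was taken. That gave 13 of the 54675 probe sets. Each gene was then represented by its brightest probe set, judged on the mean of the 6 arrays, so that they are 10 of 19775 genes tested. The 6 Affymetrix arrays came from cells infected with lentivirus that carried short hairpin RNA (shRNA). In 3 of them the shRNA was scrambled (sh-Ctrl), and in the other 3 it targeted PRLR, the prolactin receptor (sh-PRLR). Both groups had been kept in puromycin at 1 µg/ml for more than 7 days. The design asks what a PRLR knockdown does to the transcripts of these cells. The labels call the arrays biological replicates without saying that they came from separate cultures, so the p-values measure the spread between these arrays. Precision is limited by having 3 arrays in a group.

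S100 proteins are small proteins with a pair of EF hands, helix-loop-helix folds that bind calcium. Most work as dimers that open on binding calcium and then hold a target such as an annexin, a myosin or a cytoskeletal linker, and several are also released from cells and bind surface receptors such as AGER. In pancreatic ductal cancer several members are abundant, S100P above all in the literature on this tumour. In bulk RNA, fewer cells with a transcript and less of it per cell cannot be told apart.

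All values are log2 expression values. A positive difference means a higher mean in sh-PRLR, and each ± is the SD of 3 arrays. A gene is said to have risen or fallen where limma with intensity-dependent variance gave an adjusted p under 0.05 over all genes. That fit called 1514 of 19775 genes, 660 higher and 854 lower, so 43.6% of the calls were higher, against 28.4% when each array was centred on its median. Limma's default variance called 4, with 3209 at an unadjusted p under 0.05. Correlations between arrays ran from 0.949 to 0.957, and no array stood apart. PRLR itself was read by 7 probe sets, all with an overall mean below 5.93, the limit for dim genes, and all with a lower mean in sh-PRLR. They averaged 5.02 ± 0.22 in sh-Ctrl and 4.17 ± 0.22 in sh-PRLR (difference -0.85, p = 0.1 in a two-sided exact permutation test, which cannot go lower with these 6 arrays). Of these probe sets 0 passed limma with either variance, 2 had an unadjusted p under 0.05 with intensity-dependent variance and 3 with the default. Of 10 markers of pancreatic duct epithelium 8 lay above the median gene level of 7.23. Of 10 myeloid markers 9, and of 8 fibroblast markers 6, lay below 5.93, the level under which the dimmest 40% of genes fall and where replicates scatter widely.

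Of the 10 S100 genes, 3 rose in sh-PRLR cells, namely S100P, S100A6 and S100A14, and 0 fell. All 3 rises were small, between 1.14-fold and 1.24-fold. The share of all genes called was 7.66%, and of genes above the median level, where 9 of the 10 lay, it was 14.6%. For calls toward higher values these shares were 3.34% and 6.43%, and 4.32% of all genes were called lower. With default variance limma called 0 of the 10, against 0.0202% of all genes, and 5 had an unadjusted p under 0.05. Median centring also left 0 of the 10 (5 unadjusted), where 504 of 19775 genes were called (3008 unadjusted). Leaving out sh-Ctrl replicate 2 left 0 as well (5 unadjusted), with 665 genes called (3382 unadjusted). Without sh-PRLR replicate 2 or without sh-PRLR replicate 3, 1 of the 10 passed, with 859 and 948 genes called. With intensity-dependent variance 7 of the 10 had an unadjusted p under 0.05, as had 4010 of the 19775 genes. The median difference of the 10 genes was 0.14, against -0.0013 for all genes tested, with 6 higher and 4 lower in sh-PRLR. The groups did not overlap in 6 of the 10, 3 higher and 3 lower. Groups without overlap made up 25.8% of all genes and 38.9% of those above the median level.

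**Figure D1:**
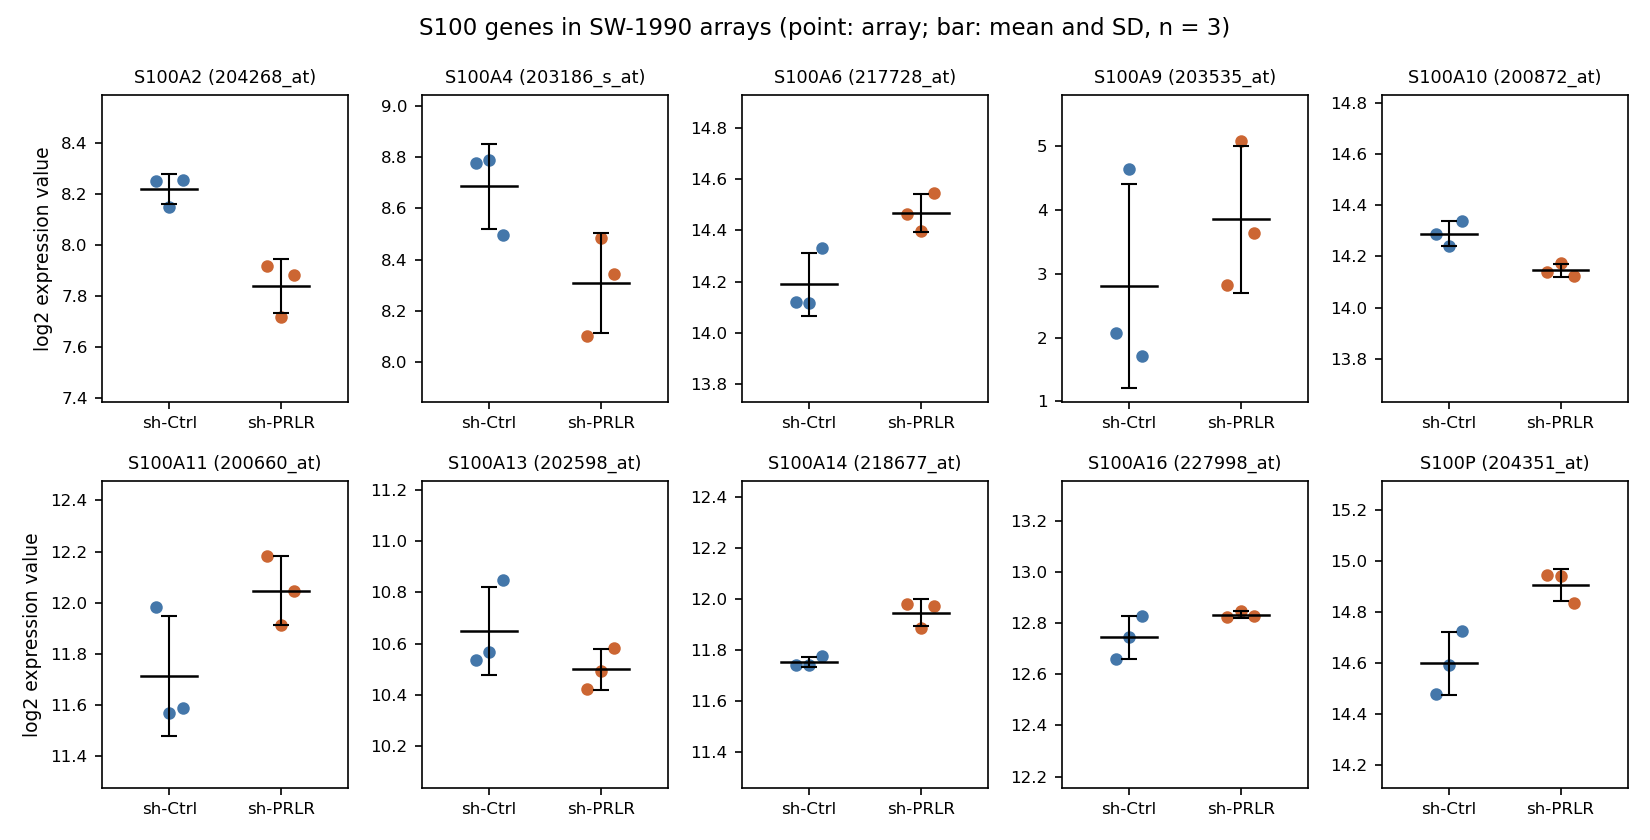
Log2 expression value of each S100 gene on each array (points), with the group mean and SD (bars, n = 3), for sh-Ctrl and sh-PRLR. The vertical axes differ in position but span the same range, apart from the wider one of S100A9; the groups separate upward for S100P, S100A6 and S100A14 and downward for S100A2 and S100A10, and by 0.0088 for S100A4.

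S100P, a secreted and cytoplasmic member that binds the membrane linker ezrin and the receptor AGER, rose in sh-PRLR cells. The sh-Ctrl arrays gave 14.48, 14.59 and 14.72, and the sh-PRLR arrays 14.94, 14.94 and 14.83. Each sh-PRLR array lay above each sh-Ctrl array, with a gap of 0.11 between the nearest 2. The means were 14.60 ± 0.12 and 14.91 ± 0.06, a difference of 0.31 (SE 0.06, 95% interval 0.17 to 0.44, 1.24-fold, limma adjusted p = 0.0117). It passed in 9 of 13 other settings and did not pass without sh-Ctrl replicate 2 (0.30, limma adjusted p = 0.0591), without sh-PRLR replicate 2 (0.29, limma adjusted p = 0.0572), with default variance (limma adjusted p = 0.222) or with median centring (0.27, limma adjusted p = 0.270).

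S100A6, or calcyclin, which binds the ubiquitin ligase adaptor CACYBP and annexin A11, rose as well. Its brighter probe set, 217728_at, gave 14.12, 14.12 and 14.33 with control shRNA, then 14.46, 14.40 and 14.55 with PRLR shRNA. The groups did not overlap, but sh-Ctrl replicate 3 came within 0.07 of the lowest sh-PRLR array. The means were 14.19 ± 0.12 and 14.47 ± 0.07, a difference of 0.28 (SE 0.06, 95% interval 0.14 to 0.42, 1.21-fold, limma adjusted p = 0.0229). The call was lost without sh-Ctrl replicate 1 (limma adjusted p = 0.0922), sh-Ctrl replicate 2 (0.110) or sh-PRLR replicate 3 (0.0840), with default variance (0.263) and with median centring (0.285). The second probe set of the gene, 228923_at, read 6.08, 5.21 and 6.40 against 6.27, 7.36 and 6.70. It pointed the same way with overlapping groups (difference 0.88, limma adjusted p = 0.267 over all probe sets with 1 symbol), and with both probe sets averaged the gene differed by 0.58 without passing (limma adjusted p = 0.150).

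S100A14, an epithelial member of the family, had the tightest sh-Ctrl values among the 3 rises. Its control arrays lay at 11.74, 11.74 and 11.78, and its sh-PRLR arrays, without overlap, at 11.98, 11.89 and 11.97. The means were 11.75 ± 0.02 and 11.95 ± 0.05, a difference of 0.19 (SE 0.05, 95% interval 0.08 to 0.31, 1.14-fold, limma adjusted p = 0.0463). This call lay just inside the threshold and passed in 2 of 13 other settings. It was lost whichever array was left out, with adjusted p between 0.0641 and 0.155 in limma.

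The bases that precede the start sites of these 3 genes are shown because they are the members that rose, and because prolactin receptor signalling is known to act through STAT5. The windows are the 250 bases before each start in RefSeq on GRCh38.p14, written 5′ to 3′ on the gene's strand. They cover chr4:6693628-6693877 on the plus strand for S100P, chr1:153535992-153536241 on the minus strand for S100A6 and chr1:153616326-153616575 on the minus strand for S100A14. Capitals mark matches to TATAAA (the TATA box), GGGCGG (the GC box), TTCNNNGAA (the STAT5 site), TGANTCA (the AP-1 site) or TGACNNNGC (the core of the antioxidant response element), searched on both strands.
S100P: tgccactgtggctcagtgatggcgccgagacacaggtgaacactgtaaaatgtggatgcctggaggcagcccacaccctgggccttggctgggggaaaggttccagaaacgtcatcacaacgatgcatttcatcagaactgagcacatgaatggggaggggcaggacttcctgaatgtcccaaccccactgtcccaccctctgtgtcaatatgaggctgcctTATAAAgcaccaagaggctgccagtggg
S100A6: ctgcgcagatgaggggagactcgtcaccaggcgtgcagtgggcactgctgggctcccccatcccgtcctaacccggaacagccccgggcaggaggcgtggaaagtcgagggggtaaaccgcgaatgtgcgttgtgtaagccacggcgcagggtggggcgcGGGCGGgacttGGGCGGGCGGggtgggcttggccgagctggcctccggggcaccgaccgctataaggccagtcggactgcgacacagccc
S100A14: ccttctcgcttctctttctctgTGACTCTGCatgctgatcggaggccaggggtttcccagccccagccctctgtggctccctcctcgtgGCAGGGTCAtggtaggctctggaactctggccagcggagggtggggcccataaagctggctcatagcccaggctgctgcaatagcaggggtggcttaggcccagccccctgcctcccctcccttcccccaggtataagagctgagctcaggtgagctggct

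The 3 windows held different matches. S100P had a TATA box that began 28 bases before the start. S100A6 had 3 GC boxes, 2 of them overlapping, that began 90, 79 and 75 bases before it, in a window of 70.0% G and C. S100A14 had matches to the antioxidant response element core 228 and 161 bases before the start, the second on the opposite strand. RefSeq gave 14 such windows for the 10 genes, and 0 of the 14 held the letters of the STAT5 site, which 6.56% of all 34943 windows hold. A TATA box was present in 4 of the 14 (10.8% of all windows), a GC box in 6 (42.5%), the antioxidant core in 2, S100A14 and S100A13 (10.9%), and an AP-1 site in 1, S100A2 (6.59%). The data hold no measure of binding at these bases, and a match is a description of the letters.

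S100A10 and S100A11 are the members best known as annexin partners. S100A10, or p11, lacks calcium binding and pairs with annexin A2 at the plasma membrane, where the complex binds plasminogen. Its brighter probe set, 200872_at, stood at 14.29, 14.24 and 14.34 under control shRNA and at 14.14, 14.17 and 14.13 under PRLR shRNA. The sh-PRLR arrays were lower without overlap, but the difference of -0.14 (SE 0.04, 95% interval -0.23 to -0.05) did not pass (limma adjusted p = 0.0598). It passed in 3 of 13 other settings. Quantile normalisation gave -0.17 (limma adjusted p = 0.0154). The difference also passed without the dimmest genes (limma adjusted p = 0.0445) and without probe sets named _x_at or _s_at (limma adjusted p = 0.0486). It did not pass with any single array left out (limma adjusted p from 0.105 to 0.164), default variance (0.375) or median centring (0.440). The second probe set, 238909_at, went the other way with overlapping groups, from 8.11 ± 0.17 to 8.25 ± 0.13, and with both averaged the difference was -0.0032 (limma adjusted p = 0.988).

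S100A11, which binds annexin A1, had control values of 11.98, 11.57 and 11.59 and sh-PRLR values of 12.18, 11.91 and 12.05. The high value of sh-Ctrl replicate 1 overlapped the sh-PRLR group. The difference of 0.33 (SE 0.11, 95% interval 0.10 to 0.57) was larger than that of S100P but did not pass (limma adjusted p = 0.0940). Without sh-Ctrl replicate 1 it was 0.47 and passed (limma adjusted p = 0.0162). It did not pass with any of the other 5 arrays left out (limma adjusted p up to 0.296), default variance (0.370) or median centring (0.240). The RefSeq gene table lists 10 pseudogenes of S100A11 and 0 of the other members, and whether the probe set reads any of them was not tested.

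**Figure D2:**
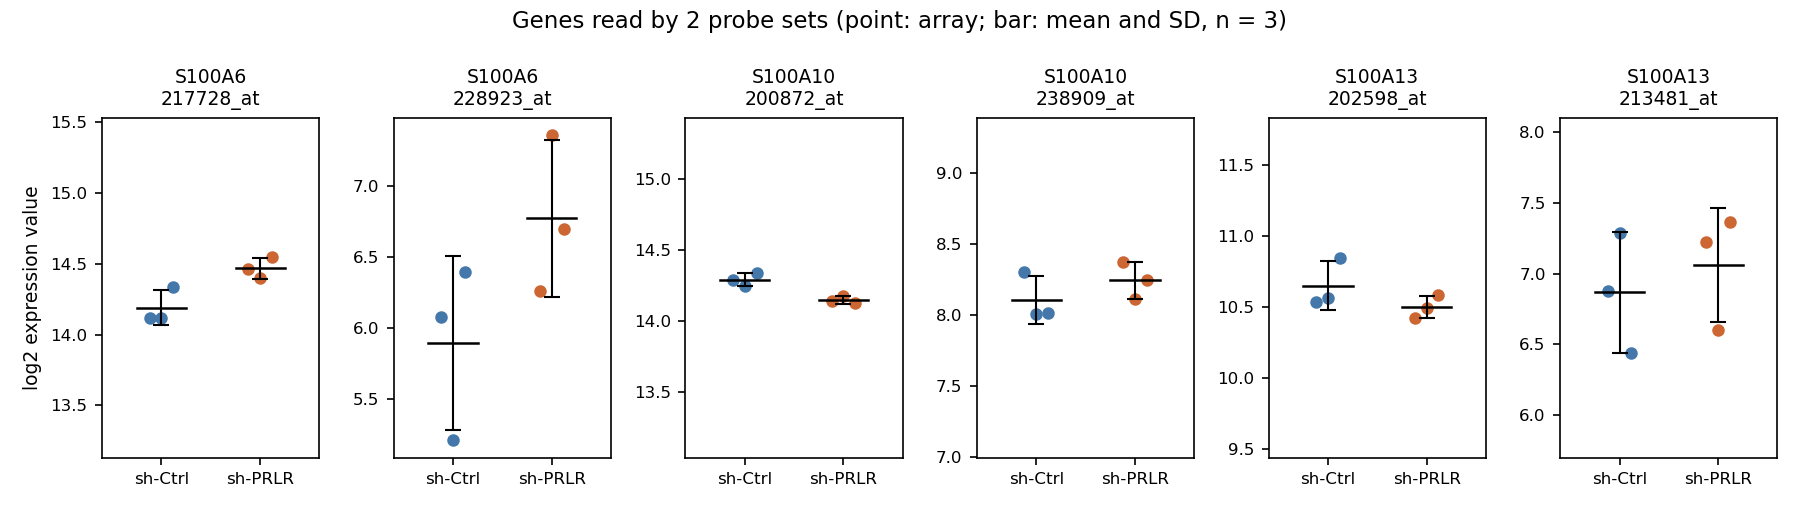
Log2 expression value on each array (points) with mean and SD (bars, n = 3) for the 3 S100 genes read by 2 probe sets each, on vertical axes of equal span. The pair of S100A6 is higher in sh-PRLR on both probe sets, whereas the pairs of S100A10 and S100A13 go opposite ways.

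S100A4 and S100A2, next to each other on the chromosome when only the 10 are counted, had the most negative differences. Both missed the threshold. S100A4, which binds non-muscle myosin and is known for its part in metastasis, gave 8.78, 8.79 and 8.49 on the control arrays and 8.10, 8.49 and 8.34 on the others. The nearest arrays of the groups were only 0.0088 apart. The difference was -0.38 (SE 0.14, 95% interval -0.69 to -0.07, limma adjusted p = 0.146). S100A2, a mainly nuclear member found in epithelia, had 8.25, 8.15 and 8.25 as control values, against 7.92, 7.72 and 7.88. Every sh-PRLR array was lower than every sh-Ctrl array, with a gap of 0.23, and the difference was -0.38 (SE 0.13, 95% interval -0.67 to -0.09, limma adjusted p = 0.119). Neither gene passed in any other setting tried, with adjusted p from 0.0719 to 0.281 for S100A2 and from 0.0846 to 0.357 for S100A4 in limma, and both were lower in each of them.

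S100A13 and S100A16 are expressed in many tissues. S100A13, which takes part in the release of FGF1 and IL1A from cells, had control values of 10.54, 10.56 and 10.85 and overlapping sh-PRLR values of 10.42, 10.49 and 10.58. The difference of -0.15 (95% interval -0.35 to 0.05) did not pass (limma adjusted p = 0.403), and the dimmer probe set 213481_at pointed the other way, from 6.87 ± 0.43 to 7.06 ± 0.40. Averaged over both probe sets the sign turned (0.022, limma adjusted p = 0.964). The S100A1 gene lies within the bounds of the S100A13 gene. The control arrays of S100A16 gave 12.66, 12.74 and 12.83 and its sh-PRLR arrays 12.82, 12.85 and 12.83, with overlap, and the difference of 0.09 (95% interval -0.03 to 0.20) did not pass (limma adjusted p = 0.386). The interval of S100A16 includes the 0.19 measured for S100A14.

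S100A9, which pairs with S100A8 as calprotectin in neutrophils and monocytes, was the dimmest of the 10. Control values were 2.07, 4.64 and 1.71, and sh-PRLR values 2.82, 5.08 and 3.64. Replicate 2 was the highest array of each group, and the groups overlapped broadly. The difference of 1.04 had a 95% interval from -1.19 to 3.27 (limma adjusted p = 0.641), so these arrays give no usable size for it. S100A8 differed by -0.36 (limma adjusted p = 0.787), also below the limit for dim genes. The summed level of 10 myeloid markers ranged from 8.05 to 8.86 in sh-Ctrl and from 8.36 to 8.57 in sh-PRLR.

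Replicates of the 9 brighter genes were close. Their SD within a group ran from 0.01, for S100A16 in sh-PRLR, to 0.23, for S100A11 in sh-Ctrl. When single probe sets with 1 symbol were tested together, 4.67% of 41091 were called. Among the 13 of the S100 genes 2 were called, 217728_at of S100A6 (limma adjusted p = 0.0282) and 204351_at of S100P (limma adjusted p = 0.0144). The probe set of S100A14 then had an adjusted p = 0.0652 in limma.

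**Figure D3:**
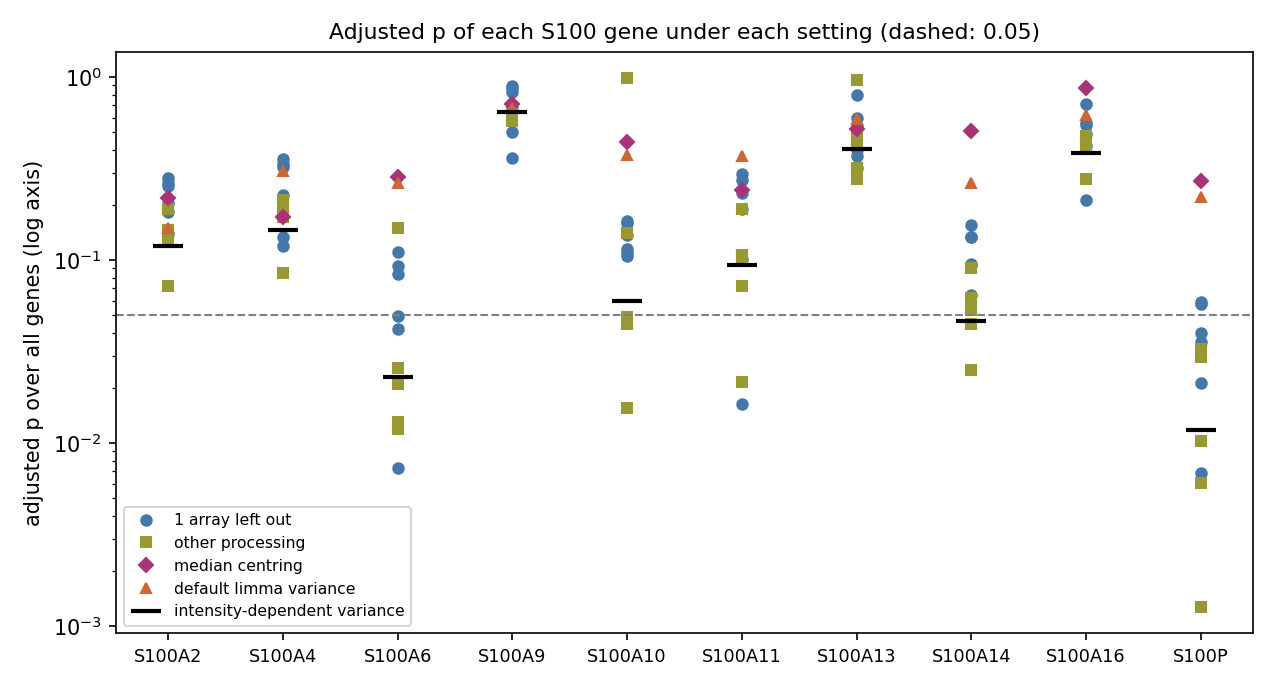
Limma's adjusted p over all genes (log axis) for each S100 gene under the fit with intensity-dependent variance (bar) and each other setting (symbols); the dashed line is 0.05. S100P and S100A6 lie below the line in most settings. S100A14, S100A10 and S100A11 each have settings on both sides, mostly above. Default variance and median centring place all 10 above the line.

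In the genome, 9 of the 10 genes lie on chromosome 1 and S100P lies on chromosome 4. On GRCh38.p14 the 9 span chr1:151982915-153634361, or 1651.4 kb, with S100A10 and S100A11 at one end and S100A9 at chr1:153357854-153361023. The other 6, from S100A6 to S100A13, lie close together after it. From S100A10 onward the differences were -0.14, 0.33 and 1.04 for S100A10, S100A11 and S100A9, then 0.28 for S100A6, -0.38 for S100A4 and -0.38 for S100A2. They ended with 0.09 for S100A16, 0.19 for S100A14 and -0.15 for S100A13. The closest of the 10, S100A16 and S100A14 at 1117 bases apart, had the same sign, although the interval of S100A16 includes 0. S100A4 and S100A2 also shared a sign. S100A6 and S100A4, 7629 bases apart, had opposite signs, as had S100A14 and S100A13, although the interval of S100A13 includes 0. Between the outermost members 36 other genes were tested, 7 of them S100 genes, and 27 of the 36 lay below the limit for dim genes. Of the 36, 2 were called, 1 higher and 1 lower, where 7.66% of all genes were.

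**Figure D4:**
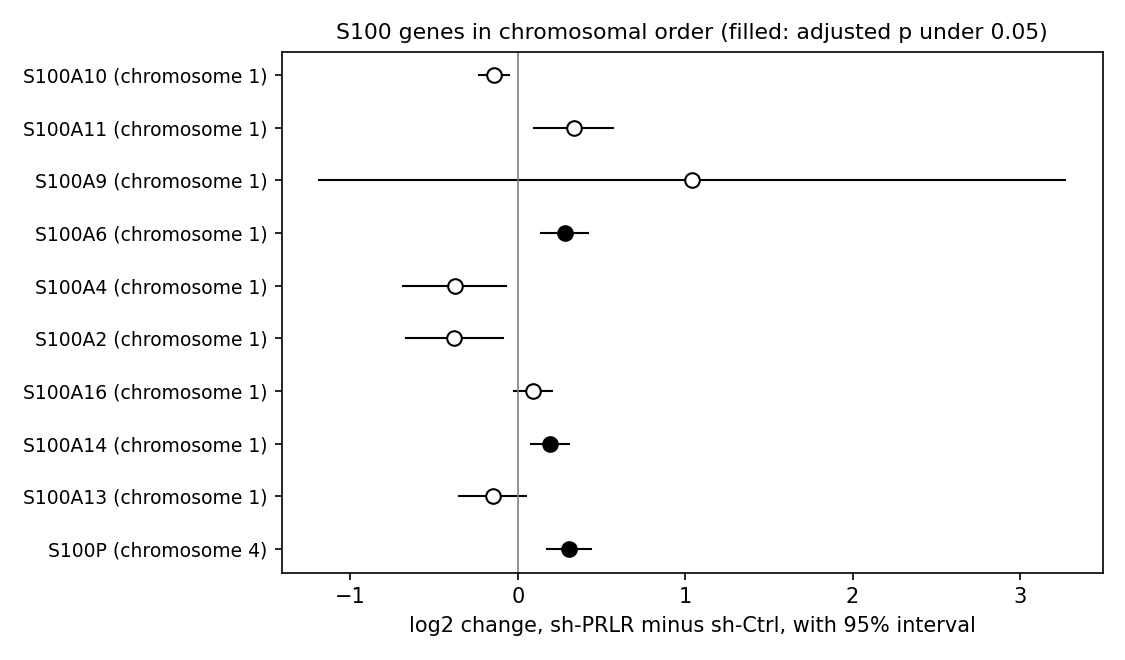
Difference between group means (sh-PRLR minus sh-Ctrl, log2) with its 95% interval for each S100 gene, in order along chromosome 1, with S100P on chromosome 4 last. Filled points passed an adjusted p of 0.05; both signs occur along chromosome 1, and the interval of S100A9 is the widest.

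The 10 other S100 genes with a probe set of their own were all below the limit for dim genes, with means from 2.06 to 5.32. Of these 0 passed limma with either variance, while 2 had an unadjusted p under 0.05 in both fits. They were S100G, a vitamin D-regulated intestinal member, at 2.76 ± 0.39 and 5.11 ± 0.40 (difference 2.35, limma adjusted p = 0.0697), and S100Z, at 5.26 ± 0.57 and 3.58 ± 0.89 (difference -1.67, limma adjusted p = 0.203), both named after their values were seen. Their median difference was -0.12.

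Annexins bind phospholipid membranes and are the main protein partners of several S100 dimers. Of 11 annexin genes 2 fell and 0 rose, with a median difference of -0.04. Of these genes 9 lay above the median level, and the 2 that fell were among them. Of all genes at that level 14.6% were called in either direction and 6.43% higher. Over all levels 4.32% of genes were called lower. Whether the annexins depart from these shares was not tested. ANXA11, a partner of S100A6, fell from 12.20 ± 0.06 to 11.88 ± 0.12 (difference -0.32, SE 0.07, limma adjusted p = 0.0180), with no overlap between groups. ANXA4 fell from 12.04 ± 0.06 to 11.78 ± 0.11 (difference -0.25, limma adjusted p = 0.0380). ANXA2, the partner of S100A10, read 14.43, 14.45 and 14.52 against 14.47, 14.45 and 14.37, with overlapping groups and a difference of -0.04 (95% interval -0.13 to 0.06, limma adjusted p = 0.686). ANXA1, the partner of S100A11, differed by -0.08 (95% interval -0.20 to 0.05, limma adjusted p = 0.503). Both calls were lost with default variance and median centring. They were also lost with 5 of the 6 arrays left out singly for ANXA4 (limma adjusted p up to 0.132) and with 4 for ANXA11 (up to 0.0888). Without _x_at and _s_at probe sets ANXA11 differed by -0.62 without passing (limma adjusted p = 0.535).

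Of 19 other genes listed as binding partners and receptors of S100 proteins, or linked through plasminogen, 4 rose and 2 fell. Their median difference was 0.12. The share called was 7.66% of all genes and 14.6% of those above the median level, where 11 of the 19 lay. Default variance left 0 calls among the 19 (7 unadjusted) and median centring 3. The largest rises were those of the urokinase system, which turns plasminogen into plasmin at the cell surface. Its genes stand in the list through plasminogen, which the S100A10 complex binds, and not as direct S100 partners. PLAUR, the urokinase receptor, gave 8.60, 8.45 and 8.38 against 9.30, 9.50 and 9.62 in sh-PRLR, higher by 0.99 (SE 0.11, limma adjusted p = 0.000839). PLAU, urokinase itself, gave 6.94, 7.38 and 7.28 against 8.09, 8.33 and 8.35, higher by 1.06 (SE 0.17, limma adjusted p = 0.00446). The groups did not overlap in either gene. PLAT, tissue plasminogen activator, is also in the list and did not rise (difference -0.14, limma adjusted p = 0.839). The rise of PLAUR rests on its _s_at probe sets, as without them the difference was 0.25 and did not pass (limma adjusted p = 0.534). Averaging the 2 probe sets of PLAU gave 1.69, which did not pass (limma adjusted p = 0.141), and neither gene passed with default variance (limma adjusted p = 0.0655 for PLAUR and 0.0853 for PLAU).

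Other genes of this list moved by amounts like those of the S100 genes. AHNAK, a giant scaffold held by annexin A2 and S100A10, rose from 12.23 ± 0.11 to 12.52 ± 0.06, and EZR, ezrin, a target of S100P, from 12.57 ± 0.05 to 12.77 ± 0.07. MYH10, non-muscle myosin IIB, fell from 11.35 ± 0.02 to 10.97 ± 0.05 (limma adjusted p = 0.00340), whereas MYH9, the myosin that S100A4 binds, differed by 0.12 (limma adjusted p = 0.592). CACYBP, the partner of S100A6, fell from 12.35 ± 0.04 to 12.11 ± 0.01 (limma adjusted p = 0.0120). With _x_at and _s_at probe sets left out, CACYBP was represented by another probe set that was higher by 0.31 without passing (limma adjusted p = 0.655), and EZR differed by 0.09 (limma adjusted p = 0.801). EZR passed in 2 of 13 other settings, AHNAK in 7, CACYBP in 8 and MYH10 in 11. With averaged probe sets none of the 4 passed (limma adjusted p = 0.124, 0.356, 0.540 and 0.198). Leaving out single arrays lost the call of EZR in 5 of 6 cases, of AHNAK in 3 and of CACYBP in 1, with limma adjusted p up to 0.184, 0.0725 and 0.0561. The receptors AGER, TLR4 and CD36 lay below the limit for dim genes and did not pass, and BSG, another receptor of S100A9, differed by 0.13 (limma adjusted p = 0.531).

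**Figure D5:**
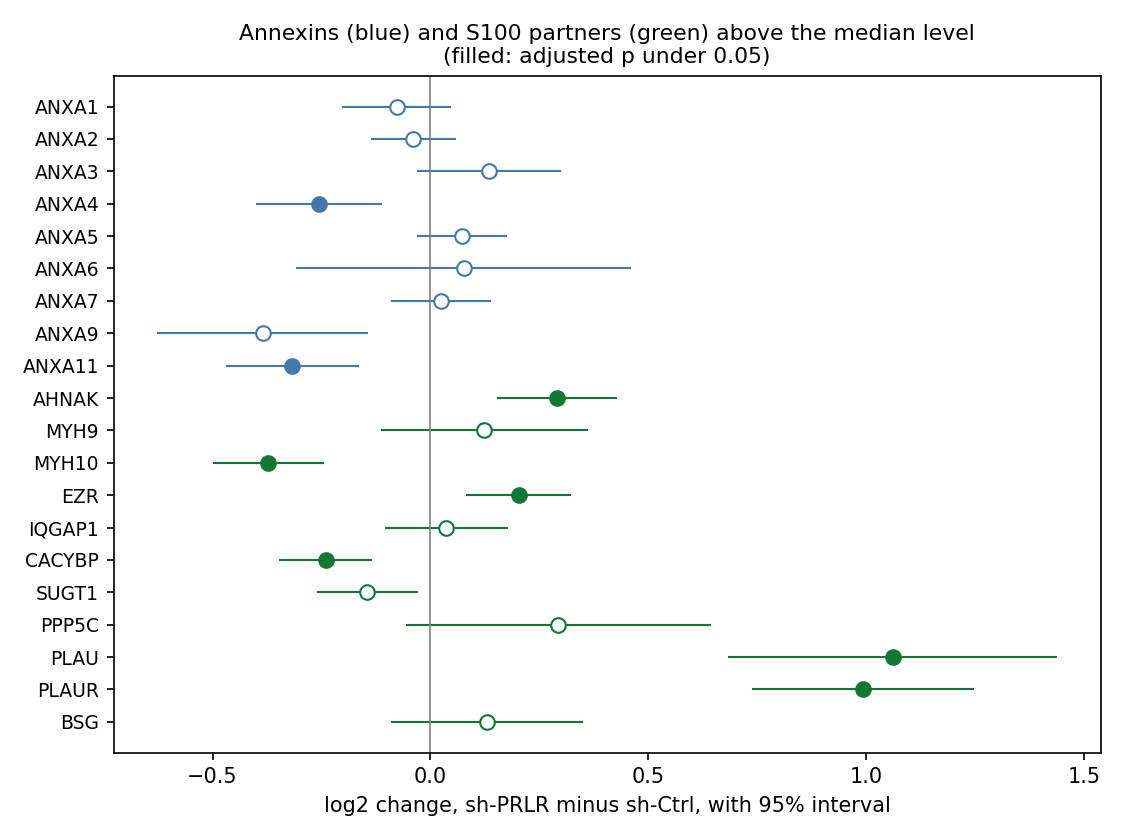
Difference between group means (sh-PRLR minus sh-Ctrl, log2) with its 95% interval for 9 annexin genes (blue) and 11 genes of the partner list, which includes the urokinase system (green). The mean of each lay above the median gene level. Filled points passed an adjusted p of 0.05; PLAU and PLAUR stand near 1, and the other filled points lie within 0.4 of 0.

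Among 31 other genes of EF-hand proteins 0 rose and 5 fell, with a median difference of 0.02. Of the 31, 24 lay above the median level, and the 5 that fell were among them. Of all genes at that level 14.6% were called in either direction and 6.43% higher. Over all levels 4.32% of genes were called lower. Whether the list departs from these shares was not tested. Default variance left 0 calls (8 unadjusted). VSNL1, a neuronal calcium sensor, fell from 10.89 ± 0.09 to 9.48 ± 0.11 (difference -1.41, SE 0.08, limma adjusted p = 1.43e-05), and EFHD1, a mitochondrial calcium-binding protein, from 8.67 ± 0.12 to 7.41 ± 0.20 (difference -1.26, SE 0.15, limma adjusted p = 0.000917). These 2 passed in 12 of 13 other settings each, the exception being default variance (limma adjusted p = 0.0563 and 0.0631). RCN2 of the secretory pathway (-0.21), the centrin gene CETN2 (-0.23) and ACTN4, an actin crosslinker (-0.29), fell by less, and each lost the call in 5 of 6 cases with single arrays left out. Of the duct markers TSPAN8 (-0.49, limma adjusted p = 0.000111) and CDH1, E-cadherin (-0.17, limma adjusted p = 0.0284, lost in 5 of those 6 cases), fell. The summed level of the 10 duct markers ran from 16.77 to 16.87 in sh-Ctrl and from 16.70 to 16.74 in sh-PRLR. Linear values were summed, so bright genes such as TSPAN8 and CDH1 weigh most. Of the 10 markers 4 were higher and 6 lower in sh-PRLR, and 2 were called, where 7.66% of all genes were. Without passing, KRT18 (0.01), EPCAM (0.04), KRT19 (0.10) and KRT7 (0.31) were higher. KRT8 (-0.05), CEACAM6 (-0.06), CLDN4 (-0.10) and MUC1 (-1.30) were lower, also without passing. The mean of MUC1 lay below the limit for dim genes. The part of this lower sum in the S100 differences was not tested.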

How the data were processed

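Total RNA of 6 SW-1990 samples was hybridised to Affymetrix arrays. The authors deposited log2 values, with 1 column for each array. Per the submitters' processing notes the tools were MAS5, RMA and affy, with no role or version stated. On all 6 arrays the linear values averaged 500 with 2% trimmed from each end, as global scaling gives, so they were not normalised again. Background correction and filters are not given in the sources used here.

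The platform annotation gave 41091 of 54675 probe sets a single symbol, 1801 several and 11777 none. Entrez IDs of 41037 were looked up in RefSeq, and 0 symbols changed. The brightest probe set stood for each of 19775 genes. The test was lmFit and eBayes (trend and robust) of limma 3.58.1 under R 4.3.3 (two-sided). P-values were adjusted by Benjamini-Hochberg across all genes, or across all probe sets with 1 symbol. It was tested on simulated data. Figures used Python 3.11.15 and matplotlib 3.10.9.

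The members, the lists and the variance setting were chosen with earlier results of these data known. Named are the 10 members, PRLR and up to 4 called genes of each other list with the smallest p. Outside this rule are AHNAK, EZR, ACTN4, S100G, S100Z, PLAT, uncalled duct markers, uncalled partners of members and genes lying between members. They were named with values seen. Of 36 EF-hand genes 5 are not analysed here. Other settings were default variance, quantile normalisation, median centring, a filter on dim genes, averaged probe sets, no _x_at or _s_at probe sets, a replicate block and each array left out. The share of called genes above the median level was added after seeing the data.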

Additional observations from a re-analysis of the deposited data

How the results depend on the processing

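Of 128 values of the 10 S100 genes under other settings, 101 kept their direction and side of the threshold, 21 lost a call, 5 gained one and 1 changed sign, S100A13 with averaged probe sets (0.022). Of 219 values of the 17 other named genes that passed, 94 lost the call and 1 changed sign, CACYBP without _x_at and _s_at probe sets (0.31). Default limma variance called 4 genes in all, and 0 of the S100 genes (5 with an unadjusted p under 0.05), 0 of their probe sets (3), 0 annexins (3), 0 partners (7), 0 EF-hand genes (8) and 0 duct markers (2). Median centring left 504 genes, 143 higher and 361 lower, with 0 S100 genes (5 unadjusted), 0 of their probe sets (6), 0 annexins (3), 3 partners, 2 EF-hand genes and 1 duct marker. It moved the median difference of all genes from -0.0013 to -0.035. Averaging probe sets left 609 genes and 1 S100 gene. With 1 array left out, the calls ranged from 665 to 1322 genes, from 0 to 2 S100 genes and from 0 to 2 of their probe sets. Without sh-Ctrl replicate 2, 0 S100 genes passed and 5 had an unadjusted p under 0.05. Without sh-PRLR replicate 2 or 3, 1 passed each. The cause was not tested. The replicate numbers did not pair the arrays (correlations of same-numbered deviations -0.06, 0.06 and -0.10 over 9887 genes), and 2 of 6 arrays correlated best with their own number in the other group. The replicate block called 1090 genes, 3 S100 genes (S100A11 with limma adjusted p = 0.0215 passed, S100A14 with 0.0900 did not) and 3 of their probe sets. Low signal limits S100A9 and the other S100 genes outside the 10.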

Other observations

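Between the outermost S100 genes on chromosome 1 lies the epidermal differentiation complex, whose genes build the cornified layer of skin. The 2 genes called there, named after their values were seen, were PRR9, a proline-rich protein gene, which rose from 11.94 to 12.48 (difference 0.54, limma adjusted p = 0.0130), and the non-coding CCDST, which fell from 8.22 to 7.52 (difference -0.70, limma adjusted p = 0.0411). In both the groups did not overlap, as in 6 of the 36 genes there, against 25.8% of all genes. PRR9 passed in 8 of 13 other settings and CCDST in 4. With single arrays left out, PRR9 lost the call in 4 of 6 cases (limma adjusted p up to 0.0659) and CCDST in 5 (up to 0.152). SPRR2B, a cornified envelope precursor, was at 10.04 and 10.21 (limma adjusted p = 0.350). Its probe set is an _x_at one, and whether it reads related genes was not tested. TCHH, trichohyalin, itself a protein with S100-like EF hands, was at 9.86 and 9.66. TCHH was lower without overlap but did not pass (limma adjusted p = 0.221). The median difference of the 36 genes was -0.19, but 27 of them lay below the limit for dim genes, where replicates scatter widely.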
